A study of Homo sapiens with 4 samples.

Results

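AL355916.1 and 8 other long noncoding RNAs (NEAT1, MALAT1, MIR22HG, PVT1, GAS5, SNHG1, SNHG5 and MIR31HG) were followed in RCC4 cells, an established human clear cell renal cell carcinoma (ccRCC) line that lacks functional VHL. The members were taken by name, and make up 9 of the 59050 genes counted. AL355916.1 was chosen by its measured log2 ratio between shPML and shCtrl, so that difference is given as a description without a test. The 8 others are widely studied noncoding RNAs of stress responses and cancer. All 9 were among the 16516 genes that passed edgeR's filter on low counts.

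RNA had been sequenced from cells carrying an shRNA against PML (shPML) or a control hairpin (shCtrl), both delivered by lentivirus and both induced for 96 h by doxycycline (100 ng/ml). There were 4 libraries, 2 of each condition, from 2 experiments with separate infections, which are called replicate 1 and replicate 2. A single hairpin and a single cell line were used, so effects of this hairpin on other targets cannot be told apart from those of PML loss. Libraries were made from polyadenylated RNA, and transcripts without a poly(A) tail, the mature snoRNAs and miRNAs among them, are outside this assay.

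Long noncoding RNAs act in several ways. NEAT1 is the scaffold of paraspeckles, nuclear bodies that hold back proteins and RNAs and that grow under stress, and MALAT1 is kept in nuclear speckles, where splicing factors gather. GAS5, SNHG1 and SNHG5 are host genes of small nucleolar RNAs (snoRNAs), which guide the modification of ribosomal RNA. The snoRNAs are cut out of introns, and the spliced remainder is degraded during its translation by nonsense-mediated decay (NMD), so its level is sensitive to growth conditions. GAS5 is also a known 5′TOP transcript, a class that starts with a C followed by pyrimidines and that mostly codes for ribosomal proteins. MIR22HG and MIR31HG are the host genes of miR-22 and miR-31, and PVT1 is a neighbour of MYC. MIR31HG is also studied in senescence, a state of lasting growth arrest in which PML has known roles too.

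The stretches of DNA that are referred to below are shown first, from GRCh38. For AL355916.1 it is the window around its RefSeq start on the plus strand, chr14:61570290-61570589, with the bases that the counted spans of AL355916.1 and of LINC01303, on the opposite strand, both cover in capitals.
AL355916.1: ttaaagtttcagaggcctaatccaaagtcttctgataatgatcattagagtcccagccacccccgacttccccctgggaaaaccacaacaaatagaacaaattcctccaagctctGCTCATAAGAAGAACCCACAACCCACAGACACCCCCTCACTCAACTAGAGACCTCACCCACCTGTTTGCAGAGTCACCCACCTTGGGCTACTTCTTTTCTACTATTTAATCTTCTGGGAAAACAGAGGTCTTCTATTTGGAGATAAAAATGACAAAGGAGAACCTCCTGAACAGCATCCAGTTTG
For SNHG1 it is the stretch up to the RefSeq start of its neighbour SLC3A2, which is read in the opposite direction, chr11:62855836-62856108 on the minus strand. The opening 50 bases of SNHG1 are in capitals, and 223 bases lie between the starts of both genes.
SNHG1: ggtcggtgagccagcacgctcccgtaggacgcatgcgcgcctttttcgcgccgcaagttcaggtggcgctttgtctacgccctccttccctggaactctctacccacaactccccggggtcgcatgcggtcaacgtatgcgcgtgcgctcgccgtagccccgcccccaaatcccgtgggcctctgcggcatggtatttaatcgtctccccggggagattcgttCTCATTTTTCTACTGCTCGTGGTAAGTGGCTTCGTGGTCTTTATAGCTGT
The 5′ ends of the 3 snoRNA host genes are shown because all 3 were lower in replicate 2 than in replicate 1, as many 5′TOP mRNAs were. Each is 24 bases long, on the minus strand, with the opening run of C and T in capitals.
GAS5: CTTTTCgaggtaggagtcgactcc
SNHG1: CTCatttttctactgctcgtggta
SNHG5: CTTTTacgtcggccttcgcgagcg
The GAS5 end is chr1:173867966-173867989, the SNHG1 end chr11:62855862-62855885 and the SNHG5 end chr6:85678710-85678733. Starts of SNHG1 and SNHG5 are those of RefSeq. That of GAS5 was used by 50 of its 91 Gencode v44 transcripts, since its RefSeq start lay outside the counted span.

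Counted reads per library ran from 27781193 to 69870617, and levels are given as CPM, counts scaled to library size after TMM normalization. PML was at 93.1 and 136 CPM in shCtrl and at 54.9 and 87.6 CPM in shPML, in replicates 1 and 2. Its log2 fold change (log2FC) was -0.69 (SE 0.30, adjusted p = 0.32 by the quasi-likelihood test of edgeR, adjusted by Benjamini and Hochberg's method over all genes), and -0.70 with the experiment as a block (adjusted p = 4.19e-07). All 8 renal carcinoma markers passed the filter, with a summed level between 4536 and 7839 CPM. Most of that sum was VIM, which is not particular to these cells, at 3227 to 5875 CPM, while LHX1 was at 0.702 to 2.58 CPM. Fibroblast markers summed to between 9.33 and 16.3 CPM, nearly all of it COL1A1 (9.19 to 16.3 CPM), with DCN and LUM at 0. Endothelial markers summed to between 0.166 and 0.389 CPM in 3 libraries and to 4.36 CPM in shPML replicate 2. PECAM1 had 113 counts there and 0 to 3 elsewhere. Immune markers summed to between 0.111 and 0.181 CPM in 3 libraries and to 141 CPM in shPML replicate 2, with CD3E at 0 in all libraries. Genes of myeloid cells such as LAPTM5 (1584 counts, against 4 to 33 in the other libraries) were high in that library too. It stands apart, and values without it, or within the replicate 1 pair, are given beside the results that change with it. Without it the log2FC of PML was -1.05, since the difference between the experiments then enters.

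AL355916.1, a long noncoding RNA between PRKCH and HIF1A, was much lower in shPML than in shCtrl in each experiment. It lies on chromosome 14 from 61570405 to 61658696 on the plus strand, with 5 exon blocks of 2719 bases in all, and is LINC03033 in Gencode v44. Little is established about what it does, and RefSeq lists it also as LncRNA-CAF. It had 1567 counts (29.0 CPM) in shCtrl replicate 1, 1092 counts (30.3 CPM) in shCtrl replicate 2, 304 counts (4.24 CPM) in shPML replicate 1 and 102 counts (3.71 CPM) in shPML replicate 2. Both shPML libraries lay far below both shCtrl libraries, and the libraries of a condition lay close together. The means were 29.6 ± 0.979 CPM and 3.98 ± 0.375 CPM (SD, n = 2 each), a 7.46-fold difference. In bulk RNA, a lower level per cell and fewer cells with the transcript cannot be told apart. Within experiments, shCtrl was 6.83-fold above shPML in replicate 1 and 8.18-fold above it in replicate 2. The log2 ratios were -2.77 (95% counting interval -2.95 to -2.59) and -3.03 (-3.34 to -2.74), and these intervals cover counting error only. Without shPML replicate 2, the fitted log2FC was -2.79, beside -2.89 with all libraries (SE 0.19). Of the 16516 genes, AL355916.1 had the 54th lowest log2FC.

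**Figure D1:**
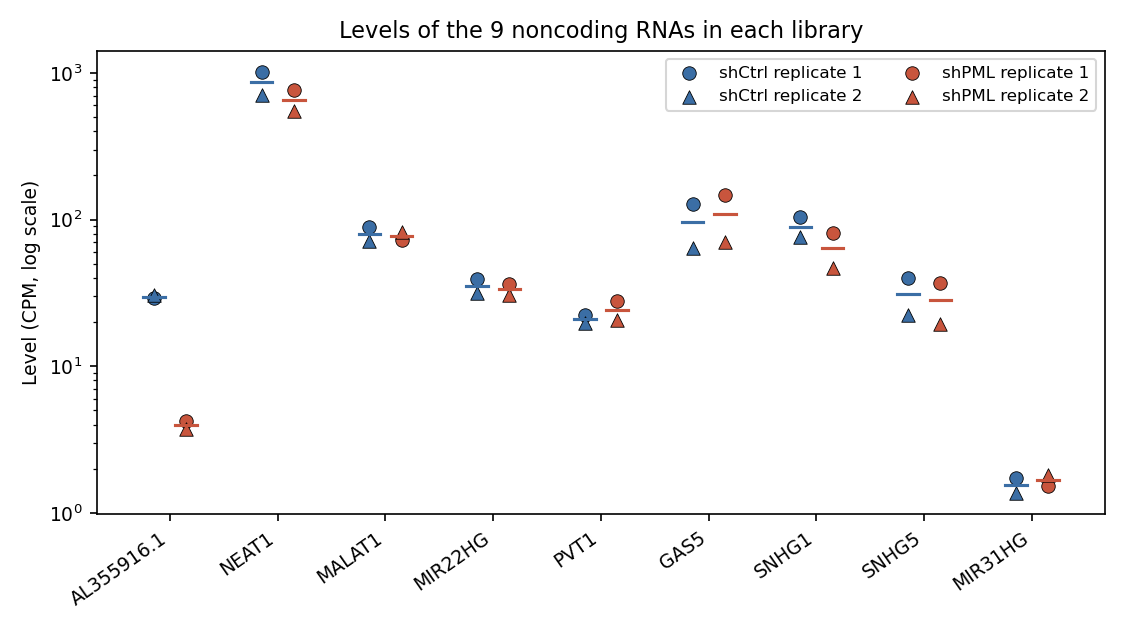
Levels of the 9 noncoding RNAs in CPM on a log axis, with circles for replicate 1, triangles for replicate 2 and a bar at the mean of each condition. AL355916.1 has a mean of 29.6 CPM in shCtrl and 3.98 CPM in shPML, while the conditions overlap for each of the 8 others.

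The tested genes around AL355916.1 did not show a difference of that size. LINC01303, a noncoding RNA on the opposite strand, shares 168 exon bases with it at its start, including capitals of the sequence above. It was at 4.73 and 3.42 CPM in shCtrl and at 5.15 and 2.18 CPM in shPML, in replicates 1 and 2, so the conditions overlapped. Its log2FC was -0.14 (adjusted p = 0.93), and -0.23 with the block (adjusted p = 0.61, both by edgeR). AL355916.3, which shares 360 exon bases on the same strand, had 0 counts in every library and was not tested, so it cannot show a difference. How reads shared by genes on the same strand were assigned was not examined, and a 0 may come from that. PRKCH, a protein kinase C gene that ends 19428 bases before AL355916.1, had 3.51 and 3.17 CPM in shCtrl and 2.09 and 2.36 CPM in shPML, a log2FC of -0.59 (adjusted p = 0.42). HIF1A, the oxygen-regulated subunit of hypoxia-inducible factor that starts 36816 bases beyond it, was at 73.1 and 87.6 CPM in shCtrl and at 88.4 and 104 CPM in shPML. Its log2FC was 0.26 (adjusted p = 0.54). The setting of strand in the counting is not given in the sources used here, so reads of overlapping genes on opposite strands may not have been separated.

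In the RefSeq promoter window of AL355916.1, none of 4 motifs searched on both strands was found. They were ACGTG, the core of the hypoxia response element (21.4% of 35116 promoters of this length hold it), TGANTCA, an AP-1 site (7.71%), CCAAT (34.6%) and GCATGCGC, a core of NRF1 sites (3.05%). In the other windows SNHG1 held GCATGCGC once, MIR22HG held ACGTG once and CCAAT 2 times, SNHG5 held CCAAT once and GAS5 held CCAAT 3 times, the GAS5 window being that of the RefSeq start outside the counted span. MALAT1 and MIR31HG held none. RefSeq promoters were found for 7 of the 9 RNAs, all but NEAT1 and PVT1.

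None of the other 8 RNAs passed the test for shPML against shCtrl. Of all genes tested, 0.412% were called, which needed adjusted p below 0.05 and log2FC past 0.5 in size, with 0.0787% higher and 0.333% lower. The count among the 8 was 0, with 0 at an unadjusted p under 0.05, and DESeq2, which called 8.91% of all genes without the block (3.5% higher and 5.41% lower), also called 0. Adjusted p by edgeR ranged from 0.51 to 0.93. All 8 had overlapping conditions, while 48% of all genes did not overlap between conditions (23.1% higher and 24.9% lower). This fit had wide errors, since the experiments differed, and 19.1% of genes were called once the experiment was a block (8.57% higher and 10.5% lower). In that fit 1 of the 8, SNHG1, was called, and NEAT1 passed the adjusted p but not the fold. Between libraries of 2 against 2, an exact permutation test cannot go below a two-sided p of 0.333 and none was used.

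Per kilobase of exon, the RNAs were ordered by mean level as GAS5 (43.3 CPM per kb), NEAT1 (33.3), SNHG1 (19.6), MIR22HG (11.5), MALAT1 (11.2), AL355916.1 (6.18), SNHG5 (4.15), PVT1 (1.40) and MIR31HG (0.175). These are levels in polyadenylated RNA over the counted length, so forms without a poly(A) tail are missed and shorter forms are not told apart. SNHG1 was counted as 1 block of 3919 bases over its whole span, and GAS5 as 14 blocks of 2361 bases in all. The order is therefore approximate. Neighbours in this order overlapped in their ranges over the 4 libraries from GAS5 (27.1 to 62.3 CPM per kb) to SNHG5 (2.70 to 5.58), though NEAT1 lay above SNHG1, and SNHG1 above MIR22HG, in each of the 4 libraries. The range of AL355916.1, from 1.36 to 11.2 CPM per kb, was the widest in ratio because of its difference between conditions. PVT1 (1.22 to 1.72 CPM per kb) lay below SNHG5 in every library, and MIR31HG (0.148 to 0.197) below all others.

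NEAT1, the paraspeckle scaffold, was somewhat lower in shPML in each experiment. It lies on chromosome 11 from 65422774 to 65445540. Its level was 1017 CPM in shCtrl replicate 1, 705 in shCtrl replicate 2, 761 in shPML replicate 1 and 549 in shPML replicate 2. The shPML library was the lower one of each experiment, but shPML replicate 1 lay above shCtrl replicate 2. The log2FC was -0.39 (SE 0.26, adjusted p = 0.52 by edgeR), and -0.39 with the experiment as a block (SE 0.09, adjusted p = 5.12e-04), which is below the fold required. Within experiments the log2 ratio was -0.42 and -0.36. Without shPML replicate 2 and without a block it was -0.17, where the difference between the experiments enters.

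Of 26 genes of paraspeckle proteins, all tested, edgeR called 0 without the block, with 8 at an unadjusted p under 0.05 (30.8%, against 17.9% of all genes). With the block 1 was higher and 5 were lower (23.1%, near the 19.1% of all genes), and DESeq2 called the same numbers without it. The median log2FC was -0.17 beside 0.01 over all genes in the fit without the block. PSPC1, a core paraspeckle protein, was at 39.5 and 35.6 CPM in shCtrl and at 24.5 and 22.1 CPM in shPML, a log2FC of -0.69 (block, adjusted p = 9.52e-06). TARDBP, which encodes the RNA-binding protein TDP-43, fell by 0.72 and HNRNPH3 by 0.80 on the log2 scale in that fit, and CIRBP, a cold-inducible RNA-binding protein, rose by 0.56. These 4 were not called by edgeR without the block and were called by DESeq2 without it. Within the replicate 1 pair, all 6 calls of the block fit kept a log2 ratio past 0.5 in the same direction.

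MALAT1, at 65497688 to 65506516 on the same chromosome, went in opposite directions in the experiments. It was at 88.4 CPM in shCtrl replicate 1, 71.1 in shCtrl replicate 2, 72.2 in shPML replicate 1 and 81.6 in shPML replicate 2. The highest and the lowest of these values were both shCtrl libraries. The rise in replicate 2 rests on shPML replicate 2, the library that stands apart. Without that library and without a block the fitted log2FC was -0.13, where the difference between the experiments enters. The log2 ratio of shPML to shCtrl was -0.29 (95% counting interval -0.35 to -0.23) in replicate 1 and 0.20 (0.12 to 0.28) in replicate 2, and the fitted value was -0.05 (SE 0.18, adjusted p = 0.93). Of 20 nuclear speckle protein genes, edgeR and DESeq2 called 0 without the block, with 2 at an unadjusted p under 0.05 (10%, against 17.9% of all genes). With it 1 was lower (5%, against 19.1% of all genes). It was SRSF3, a splicing factor of the SR family, which fell by 0.56 on the log2 scale. In the replicate 1 pair its log2 ratio was -0.39, short of the fold required. The list had a median of -0.21 in the fit without the block.

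**Figure D2:**
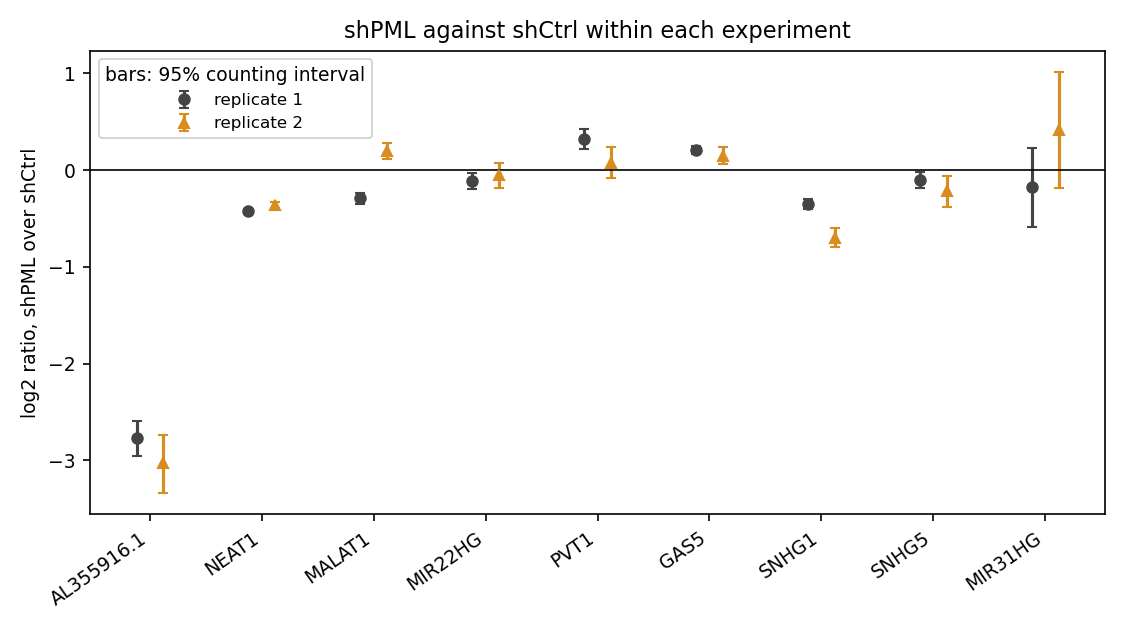
The log2 ratio of shPML to shCtrl within replicate 1 (circles) and replicate 2 (triangles) for each noncoding RNA, with 95% counting intervals as bars. AL355916.1 lies near -2.77 and -3.03, MALAT1 and MIR31HG lie on opposite sides of 0 in the experiments, and the others lie between -0.70 and 0.32.

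The snoRNA host genes differed most between the experiments. SNHG1, on chromosome 11 from 62851988 to 62855906, was at 103 CPM in shCtrl replicate 1, 75.7 in shCtrl replicate 2, 81.2 in shPML replicate 1 and 46.7 in shPML replicate 2. The shPML library was the lower one of each pair, with log2 ratios of -0.35 and -0.70, and the conditions overlapped. The fitted value was -0.48 (SE 0.31, adjusted p = 0.51), and -0.52 with the block (SE 0.11, adjusted p = 2.25e-04), where SNHG1 was called. In replicate 1 alone, without the library that stands apart, the ratio of -0.35 does not reach the fold required. Its neighbour SLC3A2, the heavy chain of amino acid transporters such as xCT and LAT1, had 358 and 374 CPM in shCtrl and 171 and 167 CPM in shPML. Both shPML libraries of SLC3A2 lay below both shCtrl libraries, with a log2FC of -1.11 (adjusted p = 0.057, and 2.62e-14 with the block), and of -1.09 without shPML replicate 2. DESeq2 called it without the block.

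GAS5, on chromosome 1 from 173858559 to 173868882, was at 128 CPM in shCtrl replicate 1, 63.9 in shCtrl replicate 2, 147 in shPML replicate 1 and 70.8 in shPML replicate 2. Each replicate 1 library was about 2.04-fold above its replicate 2 partner on average, and shPML lay slightly above shCtrl in each experiment. The log2FC for shPML was 0.19 (SE 0.46, adjusted p = 0.90), and 0.18 with the block (SE 0.11, adjusted p = 0.22). SNHG5, on chromosome 6 from 85660943 to 85678932, was at 39.8, 22.4, 37.1 and 19.3 CPM in shCtrl replicate 1, shCtrl replicate 2, shPML replicate 1 and shPML replicate 2. Again both replicate 2 libraries were the lower ones, and the log2FC for shPML was -0.14 (SE 0.41, adjusted p = 0.92).

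The other RNAs had small differences between conditions. MIR22HG, on chromosome 17 from 1711493 to 1717174, had 39.3 and 31.7 CPM in shCtrl and 36.3 and 30.6 CPM in shPML, in replicates 1 and 2, a log2FC of -0.09 (SE 0.19, adjusted p = 0.88). PVT1, with 44 exon blocks of 16142 bases, had 22.2 and 19.7 CPM in shCtrl and 27.7 and 20.8 CPM in shPML. Its log2FC was 0.21 (SE 0.21, adjusted p = 0.68), and its neighbour MYC had 0.11 (adjusted p = 0.89). MIR31HG, on chromosome 9 from 21410969 to 21559831, was the least abundant, with 94 and 49 counts in shCtrl and 110 and 50 counts in shPML. Its levels were 1.74, 1.36, 1.53 and 1.82 CPM in the same order, the log2 ratios of the experiments were -0.18 (95% counting interval -0.59 to 0.23) and 0.42 (-0.18 to 1.02), and at this depth no difference could be seen. The rows of miR-22 and miR-31 themselves, MIR22 and MIR31, had 0 counts in all libraries. The 85 bases of MIR22 lie within exons of MIR22HG on the same strand, so reads there may have been assigned otherwise.

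The experiments differed more than the conditions for several of these RNAs. In a fit with condition and experiment, 3 of the 9 were lower in replicate 2 than in replicate 1, GAS5, SNHG1 and SNHG5, while 13.5% of all genes were called, 4.53% lower and 8.93% higher. The log2 differences were -1.03 for GAS5 (SE 0.11, adjusted p = 1.35e-11), -0.89 for SNHG5 (SE 0.13, adjusted p = 9.22e-08) and -0.62 for SNHG1 (SE 0.11, adjusted p = 1.97e-05). Within shCtrl alone, which leaves out shPML replicate 2, the same differences were -0.997, -0.83 and -0.45, and within shPML they were -1.06, -0.94 and -0.80. NEAT1 had -0.50 (adjusted p = 1.80e-05), just short of the fold required. In 6 of the 9, NEAT1, MIR22HG, PVT1, GAS5, SNHG1 and SNHG5, both replicate 2 libraries lay below both replicate 1 libraries, and in 0 the reverse held. Of all genes 41.6% did not overlap between the experiments, 21.4% lower and 20.2% higher in replicate 2. AL355916.1 had a difference of -0.04 (SE 0.15, adjusted p = 0.90), MALAT1 -0.07 and MIR31HG -0.05. With the condition left out of the fit, 0 of the 9 were called, and the adjusted p of GAS5, SNHG5 and SNHG1 was 0.17, 0.20 and 0.56.

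**Figure D3:**
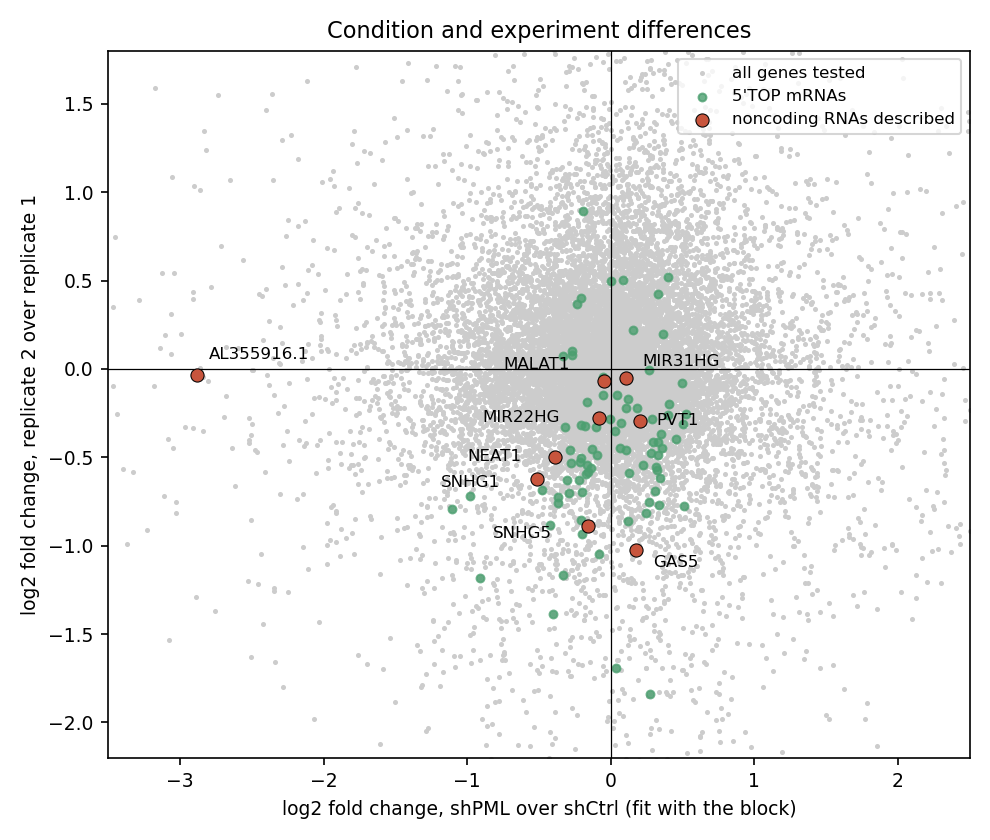
Each tested gene (grey) by its log2FC for shPML over shCtrl on the horizontal axis and for replicate 2 over replicate 1 on the vertical axis, with 5′TOP mRNAs in green and the 9 noncoding RNAs in red, the axes being limited to the central range. AL355916.1 lies far left near 0 on the vertical axis, and GAS5, SNHG5 and SNHG1 lie below 0 among the 5′TOP mRNAs.

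Messenger RNAs of the 5′TOP class moved between the experiments in the same direction as GAS5 and SNHG5. Of 82 tested, 36 were lower in replicate 2 (43.9%, against the 4.53% of all genes) and 3 were higher, and the median log2 difference was -0.46 beside -0.02 over all genes. Within shCtrl the median was -0.39 and within shPML -0.54, and 69 of the 82 (84.1%) were lower in replicate 2 in both conditions, against 36.5% of all genes. RPL21, a ribosomal protein mRNA, was at 258 and 316 CPM in replicate 1 and at 138 and 144 CPM in replicate 2, in shCtrl and shPML, a log2 difference of -1.02 (adjusted p = 2.26e-12). RPL31 had -0.93 (adjusted p = 1.52e-11). Ribosomal protein genes have many pseudogene copies, so reads may be split among them. With the condition left out of the fit, 0 of the 82 were called lower. Between conditions edgeR called 0 of these mRNAs without the block, with 4 at an unadjusted p under 0.05 (4.88%, against 17.9% of all genes). DESeq2 called 1, RPL13A, named after its value was seen. The median was 0.01. With the block 3 were higher and 2 lower (6.1%, against 19.1% of all genes). RPS28 and RPLP0 rose by 0.52 and 0.50 on the log2 scale while RPS14 fell by 0.98. The log2 ratio of RPS28 was 0.42 in the replicate 1 pair.

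The 5′ ends of the host genes above resemble this class in part. RefSeq starts were searched for a C followed by at least 4 further C or T, which 5.14% of 27305 genes had. It was found in 50 of 66 5′TOP genes (75.8%), 6 of 26 further SNHG host genes (23.1%) and 0 of 16 NMD factors. At its Gencode start, which is not the RefSeq start used for these shares, GAS5 opens with a run of 6 such bases. At their RefSeq starts SNHG5 opens with a run of 5, and SNHG1 with a run of 3 that an A interrupts. The commonest Gencode start of SNHG5 lies 15 bases from the RefSeq start.

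The list of further SNHG host genes leaves out GAS5, SNHG1 and SNHG5, and 27 of its genes were tested. Of these, 4 were lower in replicate 2 (14.8%, against 4.53% of all genes) and 1 was higher, with a median of -0.13. Of the 27, 48.1% were lower in replicate 2 in both conditions, against 36.5% of all genes. The lower ones were ZFAS1, SNHG8, SNHG19 and SNHG21 and the higher one SNHG32, all named after their values were seen. Between conditions edgeR and DESeq2 called 0 of the 27 without the block. By edgeR 3 had an unadjusted p under 0.05 (11.1%, against 17.9% of all genes). With the block 3 were called (11.1%, against 19.1% of all genes). SNHG29 rose by 0.51, SNHG18 fell by 0.73 and SNHG15 fell by 0.53 on the log2 scale. In the replicate 1 pair the log2 ratios of SNHG18 and SNHG15 were -0.36 and -0.46, short of the fold required, and that of SNHG29 was 0.54. Factors of NMD had a median of 0.04 between conditions. Without the block edgeR called 0 of 19, with 2 at an unadjusted p under 0.05 (10.5%, against 17.9% of all genes). With it 2 were called (10.5%, against 19.1% of all genes). PNRC2, a decapping cofactor, rose by 0.55 and SMG5, which acts on UPF1, fell by 0.55, and DESeq2 called both without the block. Of 14 snoRNP protein genes edgeR and DESeq2 called 0 without the block, with 1 at an unadjusted p under 0.05 (7.14%, against 17.9% of all genes). With it 2 were lower (14.3%, against 19.1% of all genes). They were NAF1 and NUFIP1, assembly factors of snoRNPs, which fell by 0.72 and 0.57. In the replicate 1 pair the log2 ratio of NUFIP1 was -0.49, just short of the fold.

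Among other noncoding RNAs, edgeR called 1 of the 25 tested stress and cancer lncRNAs without the block. It was UCA1, first described in bladder carcinoma, at 287 and 218 CPM in shCtrl and at 58.1 and 47.2 CPM in shPML, a log2FC of -2.26 (SE 0.22, adjusted p = 0.048). Without shPML replicate 2 it was -2.11 (adjusted p = 0.066). DESeq2 without the block called UCA1 and NORAD. With the block 5 of the 25 were called, UCA1 among them (20%, near the 19.1% of all genes). LINC00511 and NORAD, a decoy for Pumilio proteins, rose by 0.64 and 0.52, and CASC19 and TUG1 fell by 0.74 and 0.60 on the log2 scale. Of 19 miRNA host lncRNAs, edgeR and DESeq2 called 0 without the block, with 2 at an unadjusted p under 0.05 (10.5%, against 17.9% of all genes). The median log2FC in the edgeR fit without the block was -0.10. With the block 2 were higher and 1 was lower (15.8%, against 19.1% of all genes). The higher ones were MIR3142HG, the host of miR-146a, by 1.19 and MIR34AHG, the host of the p53-responsive miR-34a, by 0.71.

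All 9 RNAs overlap at least 1 other annotated gene, in 36 pairs, and 5 of the overlapping genes had enough counts to be tested. The 22 tested neighbours overlap a member or are the next tested gene on either side, at up to 1498299 bases. Of these, edgeR called 0 for shPML against shCtrl without the block, and DESeq2 called ZBTB37 and SLC3A2. By edgeR 3 had an unadjusted p under 0.05 (13.6%, against 17.9% of all genes). With the block 2 were higher and 3 lower (22.7%, near the 19.1% of all genes), and 4 of these 5 had a log2 ratio past 0.5 within the replicate 1 pair. ZBTB37, a zinc finger gene that overlaps GAS5 on the opposite strand, rose by 0.72 and AC103718.1, 1498299 bases beyond PVT1, by 0.77. WDR81, which overlaps MIR22HG, fell by 0.52 on the log2 scale, and SLC3A2 was described above. SNHG1 was counted as 1 block over its whole span of 3919 bases, so its exon bases take in the stretches that hold the snoRNAs. Rows of snoRNAs and their RNA families cover 15.6% of these bases on the same strand. They had 0 counts, which may come from how shared reads were assigned. Interferon pseudogenes cover 11.3% of the exon bases of MIR31HG on the opposite strand. RF01684, a row whose copies lie at the end of NEAT1 and inside MALAT1, had between 11 and 28 counts.

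The genes whose levels ran most like each RNA over the 4 libraries were found by the root mean square difference of centred log2 CPM. A prior count of 2 was used in the log2 CPM, which shrinks the differences of low-count genes. Nearest to AL355916.1 were AC005911.1, LINC01671 and AC005307.1 (0.106, 0.113 and 0.167, against a median of 1.47 over all genes), of which only AC005307.1 exceeded 1 CPM in any library. In the fit with the block, the log2FC of AC005911.1 was -4.87 and that of LINC01671 -6.46, unlike the -2.89 of AL355916.1. The small distances of these low-count genes therefore depend on the prior count. AC005307.1 was at 4.40 and 3.89 CPM in shCtrl and at 0.725 and 0.546 CPM in shPML. Nearest to GAS5 were SNORA70, RPL21 and RPL3P2 (0.019, 0.045 and 0.062). SNORA70 is a snoRNA row, mature snoRNAs are outside this assay, and the origin of its reads was not examined. Nearest to SNHG5 were SEC61G, LDHB and RPL31 (0.015, 0.037 and 0.044). ZNF836, AL118516.1 and PGK1P2 were nearest to NEAT1, ANKRD39, IFI27L1 and ZZEF1 to MALAT1, and LINC01291, RTN4IP1 and METTL18 to SNHG1. ATF7, DTNA and ZNF37A were nearest to MIR22HG, TTC27, PPP1R3E and MPDZ to PVT1, and CEP72, AC132938.5 and DDX11L2 to MIR31HG. With 4 libraries many genes come close to any pattern, so this is a description.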

How the data were processed

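RNA of RCC4 cells was measured in 4 stranded mRNA libraries of single-end reads. According to the methods and the submitters' processing notes, Trimmomatic 0.39 was used for trimming, STAR for alignment to GRCh38 and featureCounts 1.6.4 for counting. The Gencode release and the setting of strand are not given in the sources used here. The authors deposited raw counts for 59050 genes. Columns of shCtrl and shPML that bear no number were read as replicate 1, their counterparts being numbered 2. The record reports a correction of 2 swapped sample labels, and the labels were used as corrected.

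Counts were analysed with edgeR 4.0.16, DESeq2 1.42.0 and R 4.3.3. Genes were kept by filterByExpr (16516), scaled by TMM and tested by the quasi-likelihood method of edgeR, with p adjusted over all genes by Benjamini-Hochberg. A call needed adjusted p below 0.05 together with a log2FC past 0.5 in size. Replicate numbers were read as the 2 experiments of the methods. The pairing was checked by the deviations from group means, which correlated at 0.546 between both replicate 1 libraries. The experiment was a block in an alternative fit and a term in the test of replicate 2 against replicate 1. P-values rest on the spread between these libraries, 2 per condition, with the variance of each gene moderated by information pooled over all genes. In the fits with the experiment as a block or term, little spread is left per gene. Their p-values therefore lean mostly on the pooled variance. Counting intervals are exact 95% intervals.

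The members, lists and tests were chosen with earlier results of these data known, and the comparison of 5′TOP mRNAs between the experiments was added after the values were seen. Genes were named by rule, being the 9 RNAs, genes overlapping or next to them, up to 3 higher and 3 lower genes per list called with the block and with conditions that did not overlap, the 3 most alike genes of each RNA, and PML. Marker and myeloid genes, and the SNHG and 5′TOP genes said to be named after their values were seen, stand outside this rule. Some genes within this rule are not reported here. The fits of shPML against shCtrl by edgeR and DESeq2, with and without the block, were also run on simulated data. So was the edgeR fit of replicate 2 against replicate 1. The other alternative fits were not. Sequences came from RefSeq and Gencode v44 on GRCh38. Of the 9 RNAs, 3 have the same span in Gencode v44 as in the counts.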

Additional observations from a re-analysis of the deposited data

Results flagged for a closer look

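The difference between shPML and shCtrl went in opposite directions in the experiments for 2 of the 9 RNAs, and this was not tested. MALAT1 had a log2 ratio of -0.29 in the replicate 1 pair and of 0.20 in the replicate 2 pair. MIR31HG had -0.18 and 0.42 in the same order, with counting intervals that overlap. For both RNAs the ratio of the replicate 2 pair rests on shPML replicate 2, the library with immune and myeloid transcripts.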

How the results depend on the processing

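Counts of calls for shPML against shCtrl depended on the treatment of the experiments, while the log2FC of AL355916.1 stayed between -3.00 and -2.79 with any library left out. Without the block 13 genes were higher and 55 lower of all tested. DESeq2 gave 578 and 894, the replicate block in edgeR 1415 and 1735, the block in DESeq2 1102 and 1384, RLE normalization 0 and 0 (smallest adjusted p 0.050, 2967 genes at an unadjusted p under 0.05), no filter on low counts 891 and 946, and at least 10 counts in every library 53 and 144. Leaving out a library gave 1 to 11 higher and 0 to 29 lower, where a lone library is assumed to vary like the other group. AL355916.1 was chosen by this contrast, so counts that include it are no test of it. With it the 9 RNAs had 1 lower, 2 with the block in edgeR and in DESeq2, 0 with RLE and 0 to 1 without a library, 0 being without shCtrl replicate 2 and without shPML replicate 1. Neighbouring genes had 0 calls, and with DESeq2 1 higher and 1 lower, with the block in edgeR 2 and 3, with the block in DESeq2 1 and 3, and 1 lower with no filter and with at least 10 counts. List genes had 0 higher and 1 lower, with DESeq2 4 and 7, with the block in edgeR 10 and 17, with the block in DESeq2 11 and 15, with RLE 0 lower, with no filter 1 and 6, and without a library 0 to 1 lower. For replicate 2 against replicate 1, leaving out the condition term gave 0 lower of the 9 RNAs and 0 lower and 0 higher of the 5′TOP mRNAs, and 1 of these was higher with no filter and with at least 10 counts. AL355916.1 then had 0.043. Uncalled values near 0 changed sign when a library was left out. For shPML the log2FC ranged from -0.20 to 0.11 for MALAT1, -0.23 to 0.078 for MIR22HG, -0.012 to 0.41 for PVT1, -0.44 to 0.77 for GAS5, -0.69 to 0.33 for SNHG5, -0.055 to 0.30 for MIR31HG, -0.90 to 0.34 for LINC01303 and -0.13 to 0.41 for MYC. For the experiment it ranged from -0.19 to 0.067 for AL355916.1, -0.34 to 0.18 for MALAT1 and -0.37 to 0.24 for MIR31HG. No other direction changed in the alternatives run. The causes of these changes were not tested. Depth limits MIR31HG most, with 49 to 110 counts.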
